A study of Homo sapiens with 32 samples.

Results

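Vehicle cultures of SK-N-BE(2) cells were compared between 6 and 12 h, the middle of the vehicle time course, over all genes of the deposited expression table. The line comes from a human neuroblastoma, a tumor of the sympathetic nervous system, and its MYCN oncogene is amplified. The comparison used 8 of the 32 RNA-Seq samples of the series, 4 at 6 h and 4 at 12 h, chosen by the treatment and time in their labels. The other samples were 4 each of vehicle at 3 and 24 h and of cannabidiol (CBD) at 20 µM and 3, 6, 12 and 24 h. In every group, wells of a 6-well dish received 2000000 cells, which attached overnight and were treated the next morning. Vehicle was 0.1% ethanol, so every vehicle culture carried ethanol and none was left without it. Time with vehicle and time since plating ran together and cannot be told apart. The labels do not say whether the 4 samples of a group came from separate experiments. The p-values of limma thus measure the spread within groups, which may be technical. Unless stated otherwise, this spread was estimated over all 32 samples.

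A dividing cell line in a closed well uses up glucose and oxygen, releases lactate and grows denser with time. When oxygen is short, hypoxia-inducible factors are no longer marked for destruction by prolyl hydroxylases and bind hypoxia response elements near genes for glycolysis, lactate export and mitochondrial turnover. Serum factors and BMP ligands in fresh medium keep the ID genes on, and heat shock factor 1 drives chaperone genes when proteins misfold. These are general properties of cultured cells and are given as background.

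Expression was read as FPKM, mapped fragments scaled by transcript length and by library size, a level per length that can be compared between genes. Changes are differences of group means of log2(FPKM + 1) at 12 h minus 6 h with a standard error (SE), which understates the change of genes of low level. A gene is said to have risen or fallen where the adjusted p of limma was under 0.01. Of 22610 entries, 12621 had a mean FPKM of at least 1 over the 32 samples and were tested.

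The cells carried the markers of their label. MYCN stood between 1421 and 1504 FPKM at 6 h and between 1527 and 1584 at 12 h, and its change of 0.08 did not pass the test (adjusted p = 0.175). The adrenergic factors PHOX2A, HAND2, GATA3 and ISL1 and the catecholamine enzymes TH, DBH and DDC were present in all 8 samples, PHOX2A at 389 to 442 FPKM and TH at 201 to 275. Markers of Schwann, blood and endothelial cells all had means under 1 FPKM at both times. Of 6 epithelial markers, 1, EPCAM, was tested, with 2.06 FPKM at 6 h and 1.95 at 12 h. Of 7 fibroblast markers, 4 were tested, none passed in limma and 3 had an unadjusted p under 0.05. The summed level of the 7 ran from 155.5 to 162.3 FPKM at 6 h and from 145.1 to 149.5 at 12 h, nearly all of it THY1 and LUM, while the collagen gene COL1A2 averaged 0.015 FPKM at 6 h. The part of this sum in the results below was not tested.

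Depth is not recorded in FPKM. From the lowest values of 1414 genes with few reads, the depth of the 8 samples relative to each other was estimated at 0.982 to 1.11, with means of 1.05 at 6 h and 0.999 at 12 h (exact two-sided permutation test over 4 against 4 samples, p = 0.171). Between samples of 1 group, the correlation of log2 values over tested genes was 0.954 to 0.961, and between the 2 times it was 0.954 to 0.963. No pair of samples was identical. A single short RNA entry, MIR4461, took 32.9% to 34.3% of the summed FPKM at 6 h and 34.8% to 36.7% at 12 h. These ranges do not overlap, and the calls under other scalings of the samples are given beside the counts that follow.

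Between 6 and 12 h, 615 of 12621 genes changed (4.87%), 407 of them higher at 12 h (3.22%) and 208 lower (1.65%). The changes were small. The median size of a change among the 615 was 0.15 on the log2 scale, 81 reached 0.25, and 140 had a ratio of mean FPKM of at least 1.2 in either direction. Of the lists examined, the hypoxia response and the neuronal cytoskeleton had several members that rose and none that fell, and DNA replication had several that fell and none that rose. SLC16A3, a lactate exporter, also rose, and ID2, ID3 and the HSP70 genes HSPA1A and HSPA1B fell. In 605 of the 615 genes, the 4 samples at 12 h all lay on the same side of the 4 at 6 h. Over all tested genes, 9.14% had all 4 samples higher at 12 h and 8.12% had all 4 lower. With only the 8 samples of the comparison in the model, in place of all 32, 132 genes passed (108 higher, 24 lower). The share of higher calls was 66.2% as deposited, 71.9% with median-ratio scaling and 79.6% with quantile normalization.

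**Figure D1:**
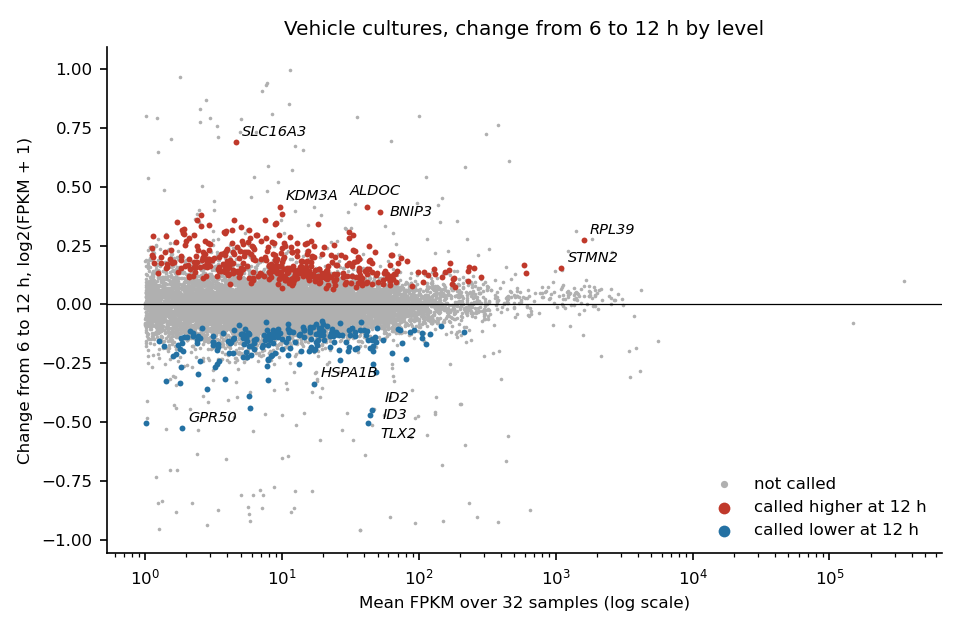
Change of each tested gene from 6 to 12 h in vehicle cultures (vertical axis, log2(FPKM + 1) at 12 h minus 6 h) against its mean FPKM over 32 samples (horizontal axis, log scale). Colored points are genes that passed the test, and 201 genes beyond 1 on the log2 scale, 1 of them called, are not drawn. Called genes lie close to the zero line, with a median size of 0.15, and few stand beyond 0.5.

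Only 5 of the called genes changed by 0.5 or more. They were SLC16A3, which rose, and GPR50, SAMD11, TLX2 and SNORD16, which fell. SNORD16 is a small nucleolar RNA whose 4 values at 6 h were 26.4, 28.3, 24.3 and 36.5 FPKM and at 12 h 0, 15.9, 0 and 10.8. Every sample at 12 h was lower than every sample at 6 h, and 2 of them were at 0. The adjusted p was 0.00481, and 0.118 with only the 8 samples in the model, and the call was also lost with 6 of the 8 samples left out in turn. It was the 1 called entry of 620 short RNA entries tested, lies in an intron of a ribosomal protein gene and has no poly(A) tail, and its change with CBD was 0.28 (adjusted p = 0.783). It is outside the rule for named genes as a short RNA and was named after its values were seen.

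Genes of the hypoxia response gave the largest number of rises of any of the 36 lists examined. Of 31 genes in the list, 29 were in the table and 25 were tested. Of these 25, 12 rose and none fell, a share of 48.0% against 3.22% of all genes, and 23 had a positive change. The median change of the 25 was 0.21, against -0.0068 for all tested genes. The 12 were KDM3A, BNIP3, PDK1, NDRG1, P4HA1, BNIP3L, AK4, CXCR4, P4HA2, MXI1, PPFIA4 and EGLN1. With only the 8 samples in the model 2 of the 25 passed, and without replicate 1 at 6 h 8 did.

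KDM3A, a histone demethylase that removes methyl groups from lysine 9 of histone H3 and is induced in low oxygen, had 7.73, 8.72, 9.98 and 8.93 FPKM in replicates 1 to 4 at 6 h and 11.4, 12.0, 12.0 and 13.0 at 12 h. All 4 samples at 12 h lay above the 4 at 6 h, and the change was 0.42 (SE 0.05, adjusted p = 2.12e-05). BNIP3, a mitochondrial outer membrane protein that marks mitochondria for removal, had 43.8, 48.6, 53.8 and 49.7 FPKM at 6 h and 60.7, 61.9, 67.0 and 68.4 at 12 h. Its change was 0.39 (SE 0.06, adjusted p = 0.000132), and the groups did not overlap. BNIP3L, its relative with the same role, went from a mean of 26.1 to 32.5 FPKM. PDK1, the kinase that shuts pyruvate out of the citric acid cycle, had 7.84, 8.40, 9.89 and 8.92 FPKM at 6 h and 11.1, 11.5, 11.9 and 12.4 at 12 h, a rise of 0.38 (SE 0.06).

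The remaining called members do other work in the same response. P4HA1 and P4HA2 are the catalytic subunits of collagen prolyl hydroxylase, and they rose by 0.35 and 0.23. AK4, a mitochondrial adenylate kinase, rose by 0.27, MXI1, a repressor that opposes MYC family proteins, by 0.22, and CXCR4, a chemokine receptor, by 0.24. EGLN1, the oxygen sensor that hydroxylates the hypoxia-inducible factors, rose by 0.11. Its call was lost under 9 of 19 alternatives, and that of PPFIA4 under 5 of 18. VEGFA, the angiogenic growth factor, went from 22.4 ± 2.8 to 27.1 ± 1.9 FPKM (SD, n = 4) and did not pass (0.27, adjusted p = 0.0134). SLC2A1, the glucose transporter, stood at 26.3 and 26.9 FPKM (0.03, adjusted p = 0.775). ADM went the other way, from 42.4 to 38.6 FPKM, and did not pass (-0.14, adjusted p = 0.0844). Its 4 samples at 12 h all lay below the 4 at 6 h. CA9, CA12, ANGPTL4 and SLC2A3 were under the level filter.

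Within each time the hypoxia genes ordered the samples alike. At 6 h, replicate 1 was the lowest of the 4 samples in 10 of the 12 called genes and replicate 3 the highest in 9. At 12 h, replicate 4 was the highest in 9 and replicate 1 the lowest in 7. The called genes thus share the variation of these samples. Relative depth was 1.02 in replicate 1 and 1.11 in replicate 3 at 6 h. With relative depth as a term in the model 12 of the 25 passed between the times. The part of depth in the order of samples within a time was not tested.

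**Figure D2:**
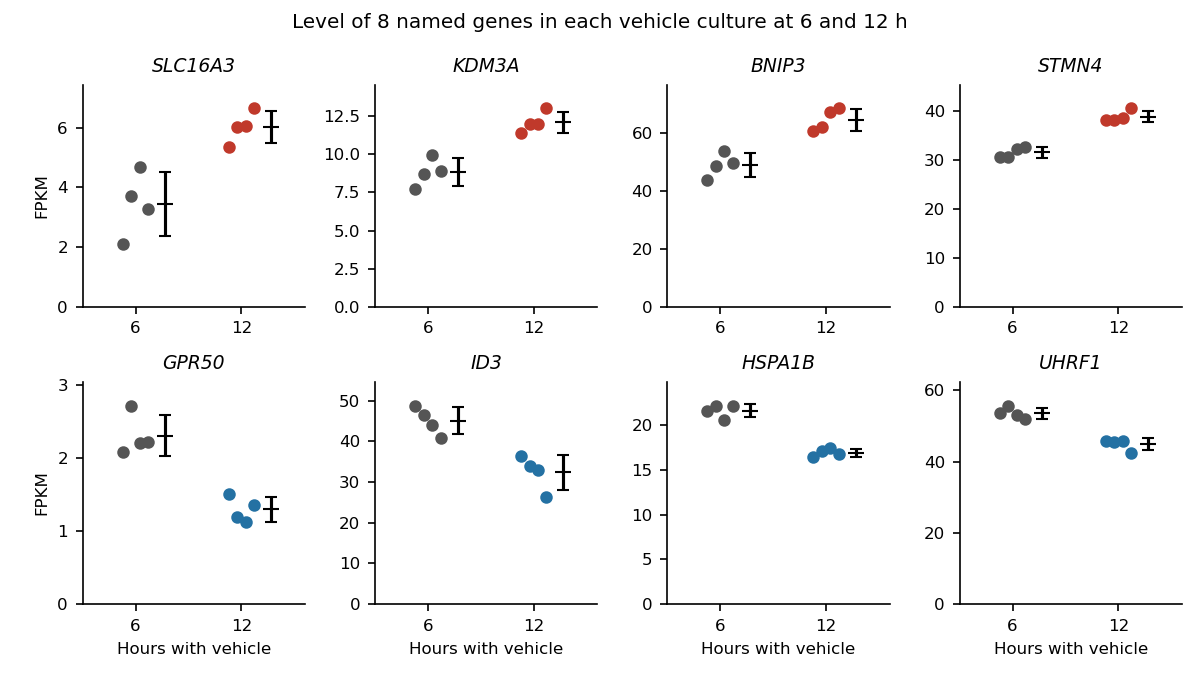
FPKM of 8 genes in each vehicle culture at 6 and 12 h (points), with the group mean and SD (bars), 4 samples a group, each panel on its own linear axis. SLC16A3, KDM3A, BNIP3 and STMN4 are higher in all 4 samples at 12 h, and GPR50, ID3, HSPA1B and UHRF1 lower.

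SLC16A3, the monocarboxylate transporter MCT4 that carries lactate out of glycolytic cells, had the largest rise of the called genes. Its values were 2.11, 3.71, 4.69 and 3.26 FPKM at 6 h and 5.37, 6.02, 6.04 and 6.65 at 12 h. Replicate 1 at 6 h was the lowest, and the highest sample at 6 h lay below the lowest at 12 h. The change was 0.69 (SE 0.13, adjusted p = 0.000659), a ratio of means of 1.75. In hg19 the gene spans chr17:80175810-80219005 on the plus strand.

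Of 18 tested genes of glycolysis, 2 rose (SLC16A3 and ALDOC, 11.1% against 3.22% of all genes) and 1 fell (LDHA, 5.56% against 1.65%), with a median of 0.05. With only the 8 samples in the model ALDOC alone passed, and SLC16A3 had an adjusted p of 0.0538. ALDOC, the aldolase of the brain, had 28.7, 33.4, 33.7 and 32.7 FPKM at 6 h and 41.8, 42.2, 44.3 and 43.5 at 12 h, a rise of 0.41 (SE 0.04, adjusted p = 1.09e-06). LDHA, which turns pyruvate into lactate, fell from 28.5 to 26.1 FPKM (-0.12, adjusted p = 0.00435), a call lost under 7 of 19 alternatives, 6 of which leave out 1 sample. PGK1, which makes ATP late in glycolysis, went from 199 to 211 FPKM and did not pass (0.08, adjusted p = 0.0131). TXNIP, an arrestin that holds back glucose uptake and follows glucose level, rose from 29.8 to 34.4 FPKM (0.20).

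Promoter sequences of genes that rose together are shown for the string ACGTG, a form of the core of the hypoxia response element. Other forms of the core were not searched. RefSeq promoter windows on GRCh38.p14 were searched on both strands over the 250 bases before each transcription start. Windows are 5′ to 3′ on the strand of the gene, and capitals mark the string, which reads CACGT where it lies on the other strand. CACGTG holds it on both strands. The windows are those of SLC16A3 at chr17:82228792-82229041 (plus strand), BNIP3 at chr10:131981924-131982173 (minus strand) and PDK1 at chr2:172555840-172556089 (plus strand).
SLC16A3: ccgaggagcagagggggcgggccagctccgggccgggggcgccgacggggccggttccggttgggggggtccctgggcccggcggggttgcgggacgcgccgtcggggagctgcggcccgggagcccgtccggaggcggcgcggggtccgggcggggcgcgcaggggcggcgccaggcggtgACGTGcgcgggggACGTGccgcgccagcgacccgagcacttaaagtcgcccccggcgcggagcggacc
BNIP3: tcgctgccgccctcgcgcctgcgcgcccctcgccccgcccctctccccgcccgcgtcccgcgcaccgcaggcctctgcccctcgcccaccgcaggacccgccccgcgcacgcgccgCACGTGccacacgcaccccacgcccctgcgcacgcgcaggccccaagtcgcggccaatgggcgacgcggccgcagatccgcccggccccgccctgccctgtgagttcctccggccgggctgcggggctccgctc
PDK1: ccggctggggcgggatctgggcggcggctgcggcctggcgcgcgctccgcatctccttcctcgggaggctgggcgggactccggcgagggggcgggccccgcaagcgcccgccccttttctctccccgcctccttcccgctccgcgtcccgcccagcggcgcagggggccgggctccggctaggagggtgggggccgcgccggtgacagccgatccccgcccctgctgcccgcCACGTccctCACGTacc
The string started 68 and 55 bases before the start of SLC16A3, 134 and 133 bases before that of BNIP3, as 1 palindrome read on both strands, and 17 and 8 bases before that of PDK1. SLC16A3 has 5 windows and PDK1 2, and only the windows printed hold it. No window of KDM3A, the called hypoxia gene with the largest rise, holds it. Of the 12 called hypoxia genes, 10 had a window and 7 of these a match, and of the 25 tested, 20 had a window and 12 a match. By window, 7 of 19 of the called genes had a match (36.8%) and 15 of 33 of the tested genes (45.5%). Among all 27305 genes with a window, 21.7% had a match, and 18.5% of 35116 windows did. A match is a description of letters and not a bound site.

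Genes of DNA replication fell. Of 41 tested, 10 fell and none rose, a share of 24.4% against 1.65% of all genes, 37 had a negative change and the median was -0.08. The 10 were UHRF1, MCM5, CDC45, RRM2, E2F8, GINS1, MCM4, CDC6, ORC1 and MCM3. Most of these are parts of the machinery that licenses and opens replication origins or supplies and marks new DNA. Members of the MCM ring, its loaders CDC6 and ORC1, and its activators CDC45 and GINS1 were among them. GINS1 was the 1 member of the 10 whose groups overlapped, and its call was lost under 14 of 19 alternatives. The call of E2F8 was lost under 10 of 18, that of MCM3 under 7 of 19 and that of RRM2 under 5 of 19. For CDC6 and ORC1 it was 6 of 19 each. The calls of MCM5 and MCM4 were lost under 1 alternative, and those of UHRF1 and CDC45 under none. With only the 8 samples in the model 2 of the 41 passed, and without replicate 1 at 6 h 4 did.

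UHRF1, which brings the maintenance methyltransferase to newly copied DNA, had 53.7, 55.7, 53.1 and 52.0 FPKM at 6 h and 45.7, 45.6, 45.8 and 42.3 at 12 h, a change of -0.25 (SE 0.04, adjusted p = 4.48e-05). MCM5, a subunit of the replicative helicase, had 90.2, 92.7, 88.0 and 86.1 FPKM at 6 h and 78.2, 76.9, 77.4 and 70.9 at 12 h (-0.23, SE 0.03). CDC45, which joins the helicase when it starts to move, went from 41.3 ± 0.9 to 36.2 ± 0.8 FPKM (SD, n = 4). RRM2, the regulated subunit of ribonucleotide reductase, went from 86.9 to 77.4 FPKM (-0.16). For each of these 4 genes every sample at 12 h was below every sample at 6 h. PCNA, the sliding clamp, stood at 224 and 214 FPKM and did not pass (-0.07, adjusted p = 0.0434).

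Of 46 mitosis genes tested, none passed in limma and 7 had an unadjusted p under 0.05, with a median of 0.01 and 26 positive changes. Among 13 G1 cyclins and CDK inhibitors, 2 rose (15.4% against 3.22% of all genes), CCNG2 (0.21) and BTG1 (0.18), both of which restrain proliferation. In bulk RNA, fewer cells in S phase and less of each message per cell cannot be told apart.

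Neuronal cytoskeleton and synapse genes rose. Of 25 tested, 7 rose and none fell, a share of 28% against 3.22% of all genes, 21 changes were positive and the median was 0.06. The 7 were STMN4, DCX, MAPT, STMN2, DPYSL3, CRMP1 and NCAM1, most of them binding microtubules or shaping the growth cone. STMN4, a brain stathmin that loosens microtubules, had 30.5, 30.6, 32.2 and 32.7 FPKM at 6 h and 38.1, 38.1, 38.5 and 40.5 at 12 h, a change of 0.29 (SE 0.04, adjusted p = 6.81e-06). DCX, doublecortin of migrating neurons, had 7.16, 7.43, 7.77 and 7.75 FPKM at 6 h and 8.37, 8.40, 8.54 and 9.43 at 12 h (0.18, SE 0.03). STMN2, the most abundant of the 7, went from 1047 to 1165 FPKM (0.15), and MAPT, the tau gene, from 27.6 to 31.3 (0.17). Neither of the last 2 overlapped between the times. With only the 8 samples in the model 2 of the 25 passed, and with each sample left out in turn 5 or 6 did. The call of CRMP1 was lost under 8 of 19 alternatives, quantile normalization among them, and that of NCAM1 under 5 of 19. The rest of the 7 lost theirs under at most 1.

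Of the adrenergic neuroblastoma factors, EYA1, a transcriptional cofactor, rose from 24.7 to 26.6 FPKM (0.10). The mesenchymal genes of neuroblastoma were mostly silent, with 4 of 14 tested. Of these, VIM, the intermediate filament vimentin, rose from 205 to 229.9 FPKM (0.16) and SNAI2, a repressor of epithelial genes, fell from 8.65 to 7.20 (-0.24). SLC6A2, the noradrenaline transporter, fell from 2.88 to 2.50 FPKM (-0.15). It was the 1 called gene of 18 of the catecholamine and granule list, 5.56% against 1.65% of all genes. This call was lost under 12 of 18 alternatives, median-ratio scaling among them. The call of VIM was lost under 10 of 19 alternatives and that of EYA1 under 6 of 19.

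**Figure D3:**
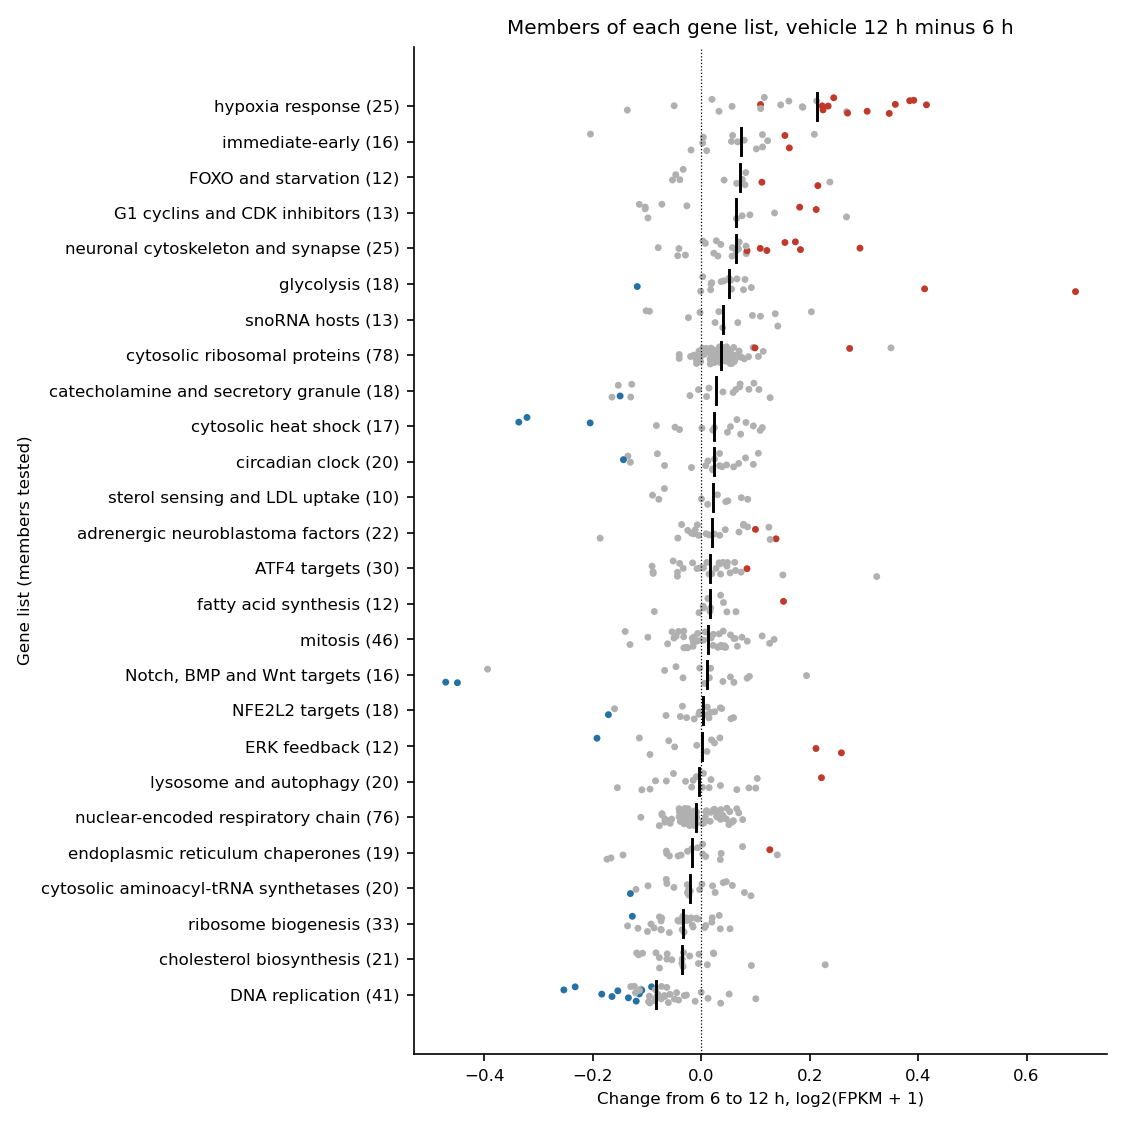
Change from 6 to 12 h of each tested member of the 26 lists with 10 or more tested members (log2(FPKM + 1), horizontal axis), with members that passed the test in color and the list median as a black line. The hypoxia median lies at 0.21 and the DNA replication median at -0.08, and most other medians lie near 0.

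ID3 and ID2 fell. The ID genes encode proteins that bind and block basic helix-loop-helix factors, hold cells undifferentiated and are turned on by BMP signaling. ID3 had 48.8, 46.5, 44.1 and 41.0 FPKM at 6 h and 36.4, 33.9, 32.9 and 26.3 at 12 h, a change of -0.47 (SE 0.08, adjusted p = 0.000483). ID2 had 53.4, 48.0, 48.3 and 47.8 FPKM at 6 h and 39.3, 37, 36.8 and 30.9 at 12 h (-0.45, SE 0.08). ID1 went from 17.9 ± 1.8 to 13.4 ± 1.7 FPKM (SD, n = 4) and did not pass (-0.39, adjusted p = 0.0185). In both genes that passed, replicate 1 was the highest and replicate 4 the lowest at each time, and no sample at 12 h reached the level of 6 h. They were the only called genes of 16 tested in the list of Notch, BMP and Wnt targets, 12.5% against 1.65% of all genes. Neither passed with only the 8 samples in the model.

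The largest falls outside the lists included a homeobox gene and its neighbor. TLX2, a homeobox gene of the enteric and autonomic nervous system, had 53.8, 52.8, 48.5 and 43.4 FPKM at 6 h and 36.8, 37.6, 34.2 and 30.2 at 12 h (-0.50, SE 0.09, adjusted p = 0.000928). DQX1, a putative RNA helicase, had 7.53, 6.80, 7.02 and 6.33 FPKM at 6 h and 5.02, 4.87, 4.60 and 4.81 at 12 h (-0.44, SE 0.06, adjusted p = 2.76e-05). In hg19 TLX2 spans chr2:74740590-74744275 on the plus strand and DQX1 chr2:74745258-74753408 on the minus strand, so their 3′ ends face each other. The methods call the run stranded, but the strand setting of the counting is not given in the sources used here, so the split of reads where these genes meet is uncertain. GPR50, an orphan receptor related to the melatonin receptors, had 2.09, 2.72, 2.21 and 2.22 FPKM at 6 h and 1.51, 1.2, 1.13 and 1.36 at 12 h (-0.53, SE 0.06). LIX1 went from 7.70 to 5.63 FPKM, GFRA2, the neurturin receptor, from 4.41 to 3.35, and SGK1, a kinase induced by serum and glucocorticoids, from 2.17 to 1.58.

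Rises outside the lists included YPEL5, NELL1, PLCH2 and PYGL. YPEL5 had 13.6, 13.3, 14.3 and 14.2 FPKM at 6 h and 17.6, 17.6, 17.6 and 18.4 at 12 h, with the smallest adjusted p for the vehicle change of the genes named here (0.34, SE 0.03, adjusted p = 2.24e-07). NELL1, a secreted growth factor-like protein, went from 1.94 to 2.81 FPKM, PLCH2, a phospholipase C, from 1.16 to 1.75, and PYGL, the liver glycogen phosphorylase, from 1.74 to 2.46. Of the 15 largest rises, 5 passed with only the 8 samples in the model (ALDOC, NELL1, PLCH2, YPEL5 and PRR36), and the other 10 had adjusted p of up to 0.0922. Of the 15 largest falls, 4 passed (DQX1, LIX1, HSPA1B and TP53I3), and the other 11 had adjusted p of up to 0.0348. Among called genes of the highest level, RPL39, a ribosomal protein gene with many pseudogene copies that can share its reads, stood at 1409 and 1703 FPKM (0.27). ENPP2, the enzyme autotaxin that makes lysophosphatidic acid, stood at 570.4 and 641 FPKM (0.17).

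Of 17 heat shock genes tested, 3 fell (HSPA1B, HSPA1A and DNAJB1), a share of 17.6% against 1.65% of all genes, none rose, and 11 had a positive change, with a median of 0.02. The summed level of the list was 4702 to 5021 FPKM at 6 h and 5024 to 5158 at 12 h. With only the 8 samples in the model, HSPA1B was the 1 member that fell and 1 other member rose. HSPA1A and DNAJB1 did not pass there (adjusted p = 0.0118 and 0.0107). With quantile normalization 2 members rose and 3 fell, and the counts were the same at a threshold of 0.05. HSPA1B, an inducible HSP70, had 21.6, 22.2, 20.6 and 22.2 FPKM at 6 h and 16.4, 17.1, 17.4 and 16.7 at 12 h (-0.34, SE 0.04, adjusted p = 6.81e-06). HSPA1A, its neighbor on chromosome 6, went from 9.94 ± 0.15 to 7.77 ± 0.57 FPKM (SD, n = 4). DNAJB1, the HSP40 partner of HSP70, had 75.9, 75.9, 73.6 and 75.3 FPKM at 6 h and 67.0, 65.2, 66.6 and 61.6 at 12 h (-0.20, SE 0.03). None of the 3 overlapped between the times. HSPA1A and HSPA1B are near-identical copies, so the split of reads between them is uncertain.

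The promoter of HSPA1A is printed because the letters of a heat shock element, GAANNTTC (a palindrome, N being any base), are in it, marked by capitals. The window is RefSeq's on GRCh38.p14, chr6:31815293-31815542, on the plus strand.
HSPA1A: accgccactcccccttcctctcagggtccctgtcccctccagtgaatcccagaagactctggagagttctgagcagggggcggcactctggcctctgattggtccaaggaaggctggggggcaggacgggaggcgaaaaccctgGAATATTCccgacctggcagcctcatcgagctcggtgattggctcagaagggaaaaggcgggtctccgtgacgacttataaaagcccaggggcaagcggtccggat
The string started 106 bases before the transcription start. The window of HSPA1B was identical to it at 235 bases, 94.0% of its length, and held the same string. All 3 called genes had a match, as did 10 of the 17 tested members, against 7.05% of all genes and 5.78% of all windows.

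Other lists held few calls. Among 16 immediate-early genes BTG2 (0.16) and KLF10 (0.15) rose, 12.5% against 3.22% of all genes. The call of BTG2 was lost under 10 of 18 alternatives. Of 12 genes of ERK feedback, PHLDA1 (0.26) and EPHA2 (0.21) rose and ETV4 fell (-0.19). These were shares of 16.7% and 8.33%, against 3.22% and 1.65% of all genes. KLHL24 and FBXO32, the latter a ubiquitin ligase of muscle wasting, rose among 12 genes of FOXO and starvation (16.7%). Of 5 YAP targets tested, AMOTL2 (0.17) and FSTL1 (0.13) rose (40.0%). Of 78 ribosomal protein genes, 2 rose, RPL39 and RPL22, a share of 2.56%, below the 3.22% of all genes. The call of RPL22 was lost under 10 of 19 alternatives. Of the 78, 68 had a positive change as deposited but 49 after quantile normalization. Single members rose in the ATF4 (ALDH18A1, 0.08), endoplasmic reticulum chaperone (CANX, 0.13), fatty acid (SCD5, 0.15) and lysosome (GABARAPL1, 0.22) lists. Each was 3.33% to 8.33% of the tested members of its list. ALDH18A1 was 1 of 30 ATF4 targets, 3.33% against 3.22% of all genes, and its call was lost under 13 of 19 alternatives, as was that of ETV4. Single members fell in the lists of the circadian clock (RORB, -0.14), tRNA synthetases (HARS, -0.13), ribosome biogenesis (NOP2, -0.13) and NFE2L2 targets (GCLM, -0.17). Each was 3.03% to 5.56% of its list, against 1.65% of all genes. No member passed in limma among the 21 genes of cholesterol biosynthesis, 10 of sterol sensing, 76 of the respiratory chain, 13 snoRNA hosts, 8 metallothioneins or 6 interferon genes, and 8, 3, 3, 4, 1 and 0 of them had an unadjusted p under 0.05. In all, 24 of 36 lists held at least 1 call.

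The same genes were followed over the rest of the vehicle course. The step from 3 to 6 h shares the 6 h samples and the step from 12 to 24 h the 12 h samples, so the values are set side by side and not tested against each other. From 3 to 6 h, 1196 genes changed (9.48%), 790 higher (6.26%) and 406 lower (3.22%). From 12 to 24 h, 4977 changed (39.4%), 2014 higher (16.0%) and 2963 lower (23.5%). The share of higher calls in the first of these steps was 66.1% as deposited and 48.8% with median-ratio scaling, and in the second 40.5% and 51.6%. From 3 to 6 h, only the 8 samples of that step gave 391 calls, and without vehicle 3 h replicate 2 there were 743.

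SLC16A3 stood at 1.43, 3.44, 6.02 and 16.5 FPKM at 3, 6, 12 and 24 h, and BNIP3 at 38.4, 49.0, 64.5 and 103. ID3 stood at 61.7, 45.1, 32.4 and 21.2 FPKM, TLX2 at 59.6, 49.6, 34.7 and 23.5, and STMN4 at 27.2, 31.5, 38.8 and 54.2. The means of these 5 genes moved the same way at each step. Of the 25 hypoxia genes, 16 were higher and 1 lower from 3 to 6 h, against 6.26% and 3.22% of all genes. From 12 to 24 h, 20 were higher and none lower, against 16.0% and 23.5%. DNA replication had 6 and then 35 of 41 members lower, against 3.22% and 23.5% of all genes. Mitosis genes, with no call from 6 to 12 h, had 28 of 46 lower from 12 to 24 h, against 23.5%. HSPA1B turned within the course, at 13.9, 21.6, 16.9 and 10.7 FPKM. The heat shock list had 8 of 17 members higher and 1 lower from 3 to 6 h, against 6.26% and 3.22% of all genes. From 12 to 24 h, 13 of the 17 were lower, against 23.5%.

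**Figure D4:**
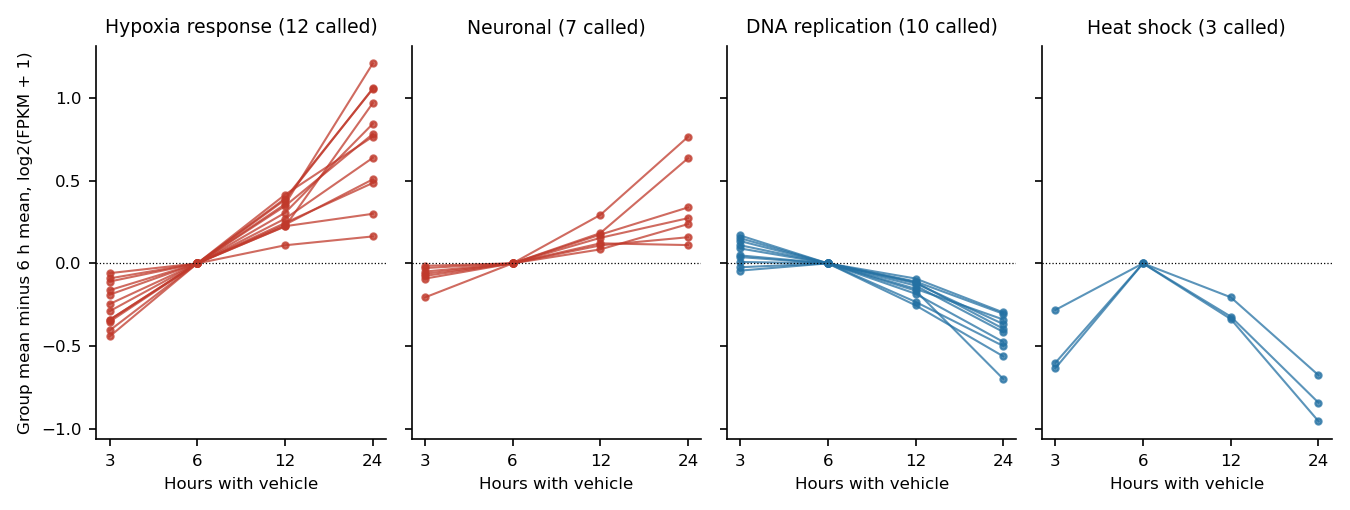
Group mean of log2(FPKM + 1) minus that at 6 h for the members called between 6 and 12 h (lines) at 3, 6, 12 and 24 h in vehicle cultures (log-spaced time axis), for 12 hypoxia, 7 neuronal, 10 DNA replication and 3 heat shock genes. The 6 to 12 h segment chose the lines. The 3 heat shock genes are highest at 6 h.

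CBD cultures over the same hours share no samples with the vehicle cultures. From 6 to 12 h with CBD, 3004 genes changed (23.8%), 1481 higher (11.7%) and 1523 lower (12.1%). Of the 407 genes that rose in vehicle cultures, 287 also rose with CBD, which is 70.5% of the 407 and 19.4% of the genes that rose with CBD. Of the 208 that fell in vehicle cultures, 144 also fell with CBD, 69.2% of the 208 and 9.46% of the genes that fell with CBD. The sign was the same for 388 of the 407 and 194 of the 208. Over the 407, the median change was 0.16 in vehicle and 0.16 with CBD, and over the 208 it was -0.15 and -0.15.

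A call in 1 treatment and not in the other does not show a difference, so the difference of the changes (vehicle minus CBD) was tested. It passed for 294 genes (2.33%), in 113 with the vehicle change above the CBD change and in 181 below. Of the 294, 241 were called with CBD and not in vehicle, 14 in vehicle and not with CBD, 30 in both and 9 in neither. Without CBD 12 h replicate 1, 183 passed.

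NDRG1 was the 1 hypoxia gene of 25 tested with such a difference, against 2.33% of all genes. It encodes a stress-responsive protein that is a standard marker of low oxygen. In vehicle it had 3.06, 4.02, 4.89 and 4.22 FPKM at 6 h and 5.07, 5.72, 5.09 and 5.82 at 12 h, and with CBD 3.26, 3.18, 3.10 and 2.80 at 6 h and 2.23, 2.63, 2.73 and 2.50 at 12 h. The vehicle samples at 12 h were all higher than at 6 h and the CBD samples all lower, and the changes of 0.36 and -0.21 differed by 0.57 (SE 0.11, adjusted p = 0.00206). The change with CBD alone did not pass (adjusted p = 0.0351), and the vehicle call was lost under 5 of 18 alternatives. SLC16A3 changed by 0.69 in vehicle and 0.16 with CBD, and this difference did not pass (0.53, adjusted p = 0.0731). Of the 25 hypoxia genes, 10 rose and 1 fell with CBD, against 11.7% and 12.1% of all genes.

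The 3 heat shock genes fell further with CBD, from a higher level at 6 h. HSPA1B had 31.5, 29.3, 30.4 and 32.8 FPKM at 6 h with CBD and 16.3, 16.0, 16.9 and 16.9 at 12 h, against means of 21.6 and 16.9 in vehicle. The vehicle change lay 0.53 above the CBD change (adjusted p = 5.75e-07), and that of DNAJB1 0.40 above (adjusted p = 2.65e-07). Among DNA replication genes 31 of 41 fell with CBD, against 12.1% of all genes. The difference passed for 3 of the 41, against 2.33% of all genes, RRM2 among them (0.27, adjusted p = 0.00133). Neuronal genes rose in 9 of 25 with CBD, against 11.7% of all genes. No member of the 25 differed between treatments past the threshold, where 2.33% of all genes did.

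Of 21 cholesterol biosynthesis genes, none passed in vehicle cultures and 20 rose with CBD, and the difference passed for 18. Over all genes, 11.7% rose with CBD and the difference passed for 2.33%. HMGCS1, the cytosolic enzyme that makes HMG-CoA, stood at 85.5 and 81.0 FPKM in vehicle and 125 and 192 with CBD. FABP3, a fatty acid binding protein, rose in both, from 7.35 to 9.05 FPKM in vehicle (0.27) and from 9.77 to 24.5 with CBD (1.24). The zinc exporter SLC30A1 went from 6.46 to 5.81 FPKM in vehicle without passing and from 24.7 to 12.0 with CBD.

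In 4 genes the calls were opposite, and they are named because of their values. CLU, the extracellular chaperone clusterin, changed by 0.13 in vehicle and -0.15 with CBD. KIAA0907 changed by -0.13 and 0.16, LRP8, a receptor of the LDL receptor family, by -0.12 and 0.12, and GRK5, a kinase of G protein-coupled receptors, by -0.10 and 0.10. For each of the 4 the difference passed, with adjusted p between 5.43e-08 and 0.000575. The vehicle call of GRK5 was lost under 12 of 19 alternatives, that of CLU under 6, LRP8 under 3 and KIAA0907 under 1. None of the 4 passed in vehicle with only the 8 samples in the model.

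**Figure D5:**
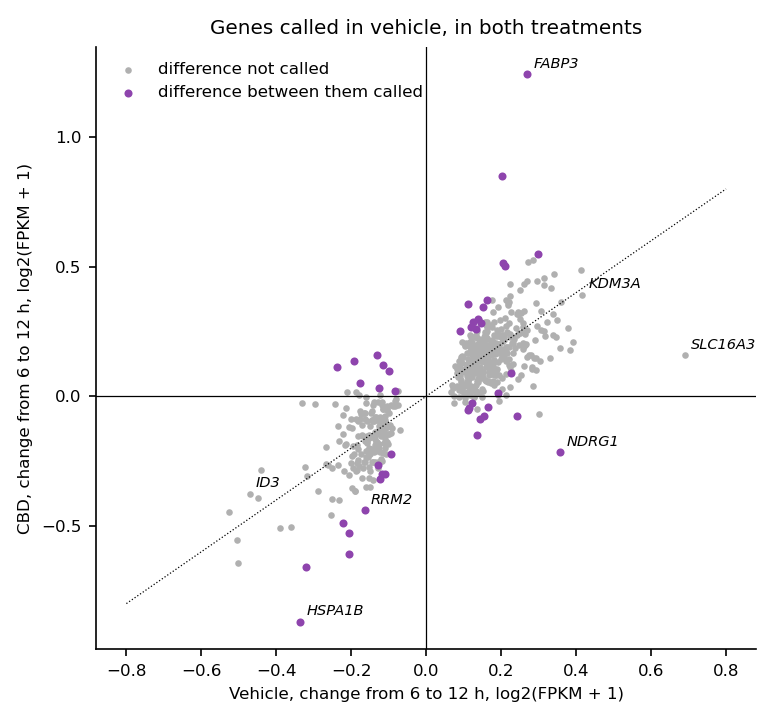
Change from 6 to 12 h in vehicle (horizontal axis) and with CBD (vertical axis), log2(FPKM + 1), for 614 genes called in vehicle cultures; SNORD16 is left out. Colored points are the 44 genes whose change differed between treatments, and the dotted line marks equal change. Vehicle values chose the genes drawn, and most points lie in the quadrants of equal sign.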

How the data were processed

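PolyA RNA of SK-N-BE(2) cells was sequenced by the authors as single reads of 50 bases, with 32 libraries pooled over 7 lanes. The labels name a Nugen kit and the methods a TruSEQ kit. The authors used Trimmomatic 0.36 for trimming, TopHat for alignment to hg19 (TopHat2 2.2.1 in the submitters' processing notes; the methods give another version) and Cufflinks for FPKM. The table of FPKM per sample is used as deposited. A deposited table of Cuffdiff log2 fold changes and q-values was not used.

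Genes were kept where FPKM averaged 1 or more (12621), and log2(FPKM + 1) was fitted with 8 group means over 32 samples in limma 3.58.1 (R 4.3.3; lmFit, contrasts.fit and eBayes with trend), and p-values were adjusted by Benjamini-Hochberg within each comparison (threshold 0.01). The script was tested on simulated data. Relative depth and exact permutation tests used Python 3.11.15 and scipy 1.17.1. Relative depth was read from 6283 low values, 93.7% of which lay within 10% of a whole multiple of the value of 1 read; it gives ratios between samples and no read number.

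The comparison, the genes and the lists were chosen with earlier results of these data known. Genes named are the 15 largest rises and 15 largest falls of called genes without overlap between the groups, called members of each list by size of change and any other member needed to account for it, the 5 called genes of highest level and the 5 genes of largest vehicle minus CBD difference in each direction, leaving out short RNA entries and names at more than 1 locus. Positions are from GENCODE 44 on GRCh37, where a gene's span covers all its transcripts. Alternatives changed the value added, the filter, the scaling, the samples in the model, the replicate block, the eBayes options, relative depth, the threshold and the samples.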

Additional observations from a re-analysis of the deposited data

Results flagged for a closer look

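In 14 of 212 groups of 4 vehicle samples of named genes, 1 sample stood far from the other 3 (chance gives about 1 group in 20). At 12 h, replicate 4 was such a sample at 18.4 FPKM for YPEL5, 42.3 for UHRF1, 148.8 for MCM3, 9.43 for DCX, 23.9 for NOP2 and 294 for PTGES3. Replicate 3 was far from the others at 2.73 FPKM for PYGL and 2.74 for BTG2, replicate 1 at 5.96 for LIX1 and 7.39 for MT1X, and replicate 2 at 5.05 for AMOTL2. At 6 h, replicate 1 stood apart at 53.4 FPKM for ID2, and replicate 2 at 210.7 for RPL22 and 6.99 for SLC30A1.

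The change from 6 to 12 h differed between vehicle and CBD in 294 genes, 21 of them named here. On the log2 scale, the vehicle change lay above the CBD change by 1.29 for MT1X, 0.85 for SLC30A1, 0.64 for HSPA5, 0.57 for NDRG1, 0.53 for HSPA1B, 0.40 for DNAJB1, 0.34 for HSPA1A, 0.29 for CLU, 0.27 for RRM2 and 0.18 for LDHA. The vehicle minus CBD difference was -1.06 for SLC39A10, -0.97 for FABP3, -0.76 for ACSS2, -0.69 for HMGCS1, -0.68 for NPPA-AS1, -0.33 for ETV4, -0.29 for KIAA0907, -0.25 for FBXO32, -0.23 for LRP8, -0.20 for GRK5 and -0.16 for NOP2.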

How the results depend on the processing

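The 615 calls from 6 to 12 h became 132 with only the 8 samples in the model (116 of them shared), 1346 at a threshold of 0.05 and 328 to 497 with 1 sample left out. Without vehicle 6 h replicate 1 there were 328, without 12 h replicate 3 401 and without 12 h replicate 4 390. The vehicle minus CBD difference gave 294, with 799 at 0.05 and 183 to 366 with 1 sample left out. The change with CBD gave 3004, with 1452 from its own samples only and 4561 at 0.05. The step from 3 to 6 h gave 1196, with 391 from its own samples only, 2351 at 0.05 and 743 to 981 with 1 sample left out. The other alternatives kept these counts, and all did that of 12 to 24 h, within 1.5 times. Over all tested genes, replicate numbers did not pair the samples (same-number correlations -0.013, -0.094, -0.038 and 0.11), although replicate 1 was highest and replicate 4 lowest at both times for ID2 and ID3, and the replicate block gave 795 calls for vehicle. With the replicate block and only the samples of the comparison, added after seeing the data, limma made 0 calls for vehicle (3235 genes at an unadjusted p under 0.05) and 175 for the difference. For named genes, 1799 of 2199 values kept direction and side of the threshold, 389 lost the call and 11 gained one. For counts over lists, 384 of 567 stayed within 1.5 times. No direction of a call reversed. FPKM carry no read number, so the depth behind low genes, such as SLC16A3 and GPR50, is unknown.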
